A study of Homo sapiens with 12 samples.

Results

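The genes described here are the nuclear genes whose products make up the human oxidative phosphorylation system: the subunits of respiratory complexes I, II, III and IV, the electron carrier cytochrome c, and the subunits of ATP synthase, also called complex V. They were chosen by gene symbol from the 60564 rows of an RNA-seq table, with a minimum level of 1 FPKM (fragments per kilobase, scaled to the mapped fragments of the library) in 3 or more of 12 libraries. That gave 76 genes of the 12860 that reached this level: 36 of complex I, 4 of complex II, 9 of complex III, cytochrome c, 11 of complex IV and 15 of complex V. A second row that carries the symbol SDHD matched the pattern and lay below the minimum. The rule reads symbols and levels, and was written with earlier results of these data known.

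The libraries came from BxPC-3 and CFPAC-1, established cell lines from human pancreatic ductal adenocarcinoma. In both lines the induced cells had 48 h without serum to make them grow primary cilia, and the control cells were kept in normal culture. The series text gives cilia on 78% of induced and 5% of control BxPC-3 cells, and on 39% of induced and 7% of control CFPAC-1 cells. Each of the 4 groups (BxPC-3 induced, BxPC-3 control, CFPAC-1 induced, CFPAC-1 control) had 3 libraries, 12 in all. Nothing in the labels says whether these were separate cultures, so the p-values measure the spread between the libraries, which may be technical. Starvation and ciliation were applied together and cannot be told apart.

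Oxidative phosphorylation takes place in the inner membrane of mitochondria. Complex I takes electrons from NADH and complex II takes them from succinate, an intermediate of the tricarboxylic acid cycle. Both pass them through ubiquinone to complex III, cytochrome c and complex IV, where oxygen is reduced to water. Complexes I, III and IV pump protons out of the matrix, and complex V lets them flow back through a rotor to make ATP. A few core subunits are encoded in mitochondrial DNA and all the others in the nucleus. Complexes I, III, IV and V are thus built from both genomes. Some pancreatic cancers depend on this pathway although they also ferment glucose.

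All 76 genes were at or above 1 FPKM in all 12 libraries, and the lowest single value was 3.08 FPKM, for NDUFA5. They lie on 22 chromosomes, with 10 on chromosome 19 and 7 on chromosome 11, and none on the mitochondrial chromosome. Their annotated coding transcripts are mostly short: the median length in GENCODE release 29 was 707.5 bases over the 76 genes, and 60 were under 1000 bases. The length of a gene here is the median over its annotated coding transcripts, which need not be the message these cells made. Many have copies elsewhere in the genome, with pseudogenes named after 45 of the 76. CYCS has 40, COX6C 17, and NDUFA5 and NDUFB4 12 each. A gene on the same strand overlaps 28 of the 76 and one on the opposite strand overlaps 39. The sources used here do not say how shared reads or strand were handled, so single values of such genes are uncertain.

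Libraries 2 and 3 of CFPAC-1 control stood apart from the other 4 of that line: over tested genes their log2 values had r = 0.990 with each other and a mean r = 0.803 with the other 4, which had a mean r = 0.944 among themselves. With the 6 BxPC-3 libraries their mean r was 0.785 over tested genes. Over the 76 genes it was 0.895 with the other 4 of the line and 0.933 with BxPC-3. The duct keratin KRT19 was at 532, 7.42 and 7.67 FPKM in CFPAC-1 control. The fibroblast markers went different ways: LUM was at 25.5, 108 and 103 FPKM in CFPAC-1 induced and 36.8, 0.0532 and 0 FPKM in CFPAC-1 control, COL1A1 at 0.0792, 0.14 and 0.0823 FPKM in induced and 0.0445, 4.27 and 4.28 FPKM in control, and COL3A1 at 0.0385, 0.154 and 0.16 FPKM in induced and 0.0733, 1.98 and 2.06 FPKM in control. CD68, a macrophage marker that other cells also carry in their lysosomes, was at 47.8, 38.9 and 37.1 FPKM in CFPAC-1 induced and 12.8, 6.94 and 6.64 FPKM in CFPAC-1 control. For each gene named below, a log2 change or difference that uses these 2 libraries is given with and without them. Without them the CFPAC-1 control group is 1 library, control 1. Its spread is then assumed to be that of the other groups, and a call in that setting has no replicate on the control side. Of 8 tested duct or epithelial markers, 6 to 8 reached 1 FPKM in a library, with a sum of 472 to 1815 FPKM. CDH1, the epithelial cadherin, was at 38.2 FPKM or more in BxPC-3 and under 1 FPKM in all 6 CFPAC-1 libraries, and KRT7 was at 0.926, 1.97 and 1.40 FPKM in induced and 0.34, 2.01 and 1.92 FPKM in control CFPAC-1 cells. Of 20 markers of other cell types, 2 or 3 reached 1 FPKM in a library, 6 to 15 were at 0, and their sum was 6.10 to 9.18 FPKM in BxPC-3 induced, 5.87 to 6.51 in BxPC-3 control, 74.2 to 153 in CFPAC-1 induced and 13.1 to 50.3 in CFPAC-1 control. The part of these markers in the results below was not tested. The table holds no counts, so the absolute depth is unknown and no counting interval can be given.

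Levels are given in FPKM, a scale corrected for transcript length. The mean over 12 libraries ran from 4.35 FPKM for NDUFA5, an accessory subunit of complex I, to 455 FPKM for ATP5B, the catalytic beta subunit of ATP synthase, with a median of 36.0 FPKM. Of the 76 genes, 8 averaged over 100 FPKM: ATP5B, COX8A (392), NDUFS5 (217), NDUFA1 (212), COX6A1 (200.4), UQCRH (173), CYC1 (114) and COX5A (101). COX8A, COX6A1 and COX5A are nuclear subunits of complex IV around its mitochondrially encoded core, and NDUFS5 and NDUFA1 are small accessory subunits of complex I. Another 7 averaged under 10 FPKM, 6 of complex I and SDHC, one of the membrane anchors of complex II. By complex the median of the means was 23.4 FPKM in complex I, 37.7 in complex II, 51.9 in complex III, 71.2 in complex IV and 33.9 in complex V. The lowest of complex III was UQCRB at 10.5 FPKM, of complex IV COX7B at 26.2 and of complex V ATP5D at 18.1.

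The highest and lowest library differed by 1.48-fold for the steadiest gene, UQCRC2, a core protein of complex III, and by 5.70-fold for the least steady, ATP5J2, the f subunit of ATP synthase. Summed over the 76 genes, the level was 3398, 4892 and 4760 FPKM in BxPC-3 induced and 4570, 4419 and 4350 FPKM in BxPC-3 control. It was 3001, 3994 and 3710 FPKM in CFPAC-1 induced and 4474, 4787 and 4775 FPKM in CFPAC-1 control. All 3 CFPAC-1 induced libraries lay below the 3 controls, whereas the BxPC-3 groups overlapped, with induced library 1 as the lowest of the 6.

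**Figure D1:**
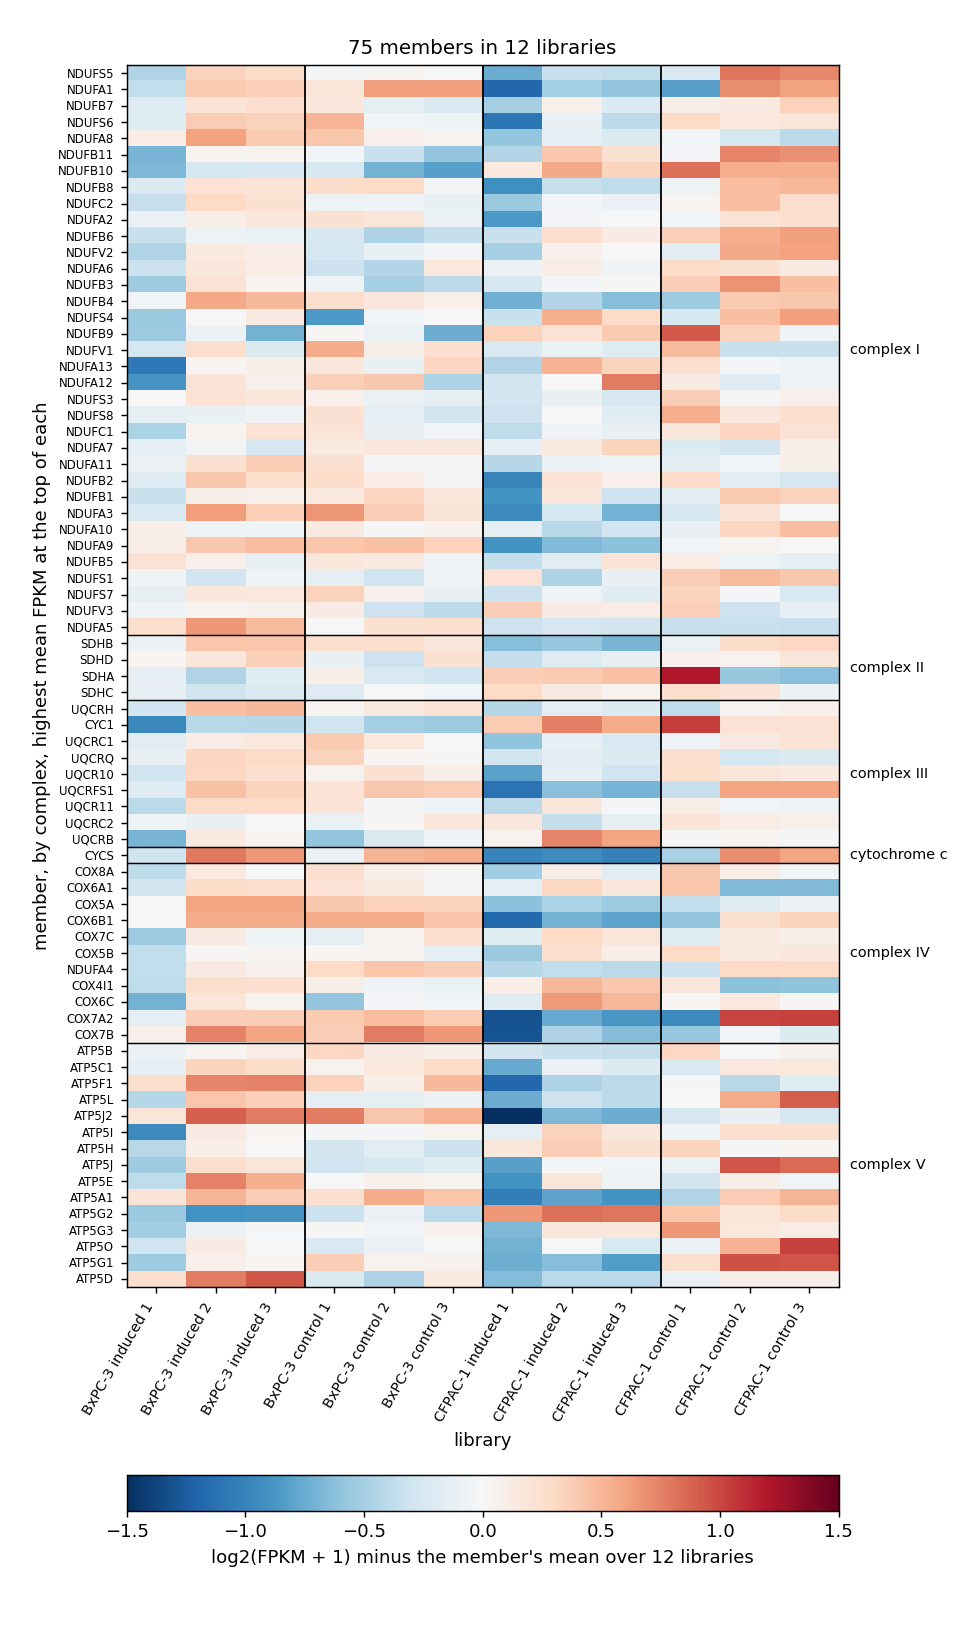
Level of 75 of the 76 genes in the 12 libraries, as log2(FPKM + 1) minus the gene's mean over the 12 libraries (colour; rows by complex, highest mean FPKM at the top of each; columns by group). Library 1 of each induced group is bluer than libraries 2 and 3 down most of the column, CFPAC-1 control 1 departs from controls 2 and 3 at SDHA (70.6 against 19.9 and 19.2 FPKM), and ATP5G2 runs against its neighbours.

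In CFPAC-1 cells, 9 of the 76 genes fell after induction and none rose, or 11.8% of them, at a Benjamini-Hochberg adjusted p under 0.05 from limma. Over all tested genes 16.6% passed in either direction, 8.77% as lower and 7.85% as higher, so the share of lower genes was near that of the background. The median log2 change of the 76 was -0.39, with 61 below 0, and that of all tested genes was -0.09. At an unadjusted p under 0.05, 30 of the 76 were lower and 2 higher, against 20.7% and 15.3% of all tested genes. With all libraries, the induced and control groups did not overlap for 31 lower and 3 higher genes of the 76, against 17.6% and 14% of all tested genes. The 9 were NDUFA9 and NDUFB8 of complex I, SDHB of complex II, UQCRFS1 of complex III, CYCS, COX6B1 of complex IV, and ATP5A1, ATP5G1 and ATP5L of complex V.

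Without CFPAC-1 control libraries 2 and 3, none of the 76 passed limma's test, against 1.73% of all tested genes in either direction. At an unadjusted p under 0.05, 7 were then lower and none higher, against 9.82% and 8.25% of all tested genes, so the lower genes were at about the background share. The median log2 change was -0.29, that of all tested genes -0.05, and 61 were again below 0. Those 61 were not the same genes: 14 of the 76 changed sign, 7 in each direction. The count of calls moved with each library of this line, and so did the share of all tested genes that passed. Without induced 1, 5 of the 76 passed (15.3% of all tested genes), without induced 2 there were 4 (6.03%) and without induced 3 there were 2 (6.24%). Without control 1, 26 passed, 22 lower and 4 higher, where 42% of all tested genes did, and without control 2 or control 3 there was 1 (3.93% in each case).

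The largest fall was that of ATP5G1, which encodes the c subunit of the ATP synthase rotor (GRCh38, chr17:48892765-48895871, plus strand). It was at 9.95, 10.7 and 9.19 FPKM in CFPAC-1 induced, against 20.6, 34.3 and 34.0 FPKM in CFPAC-1 control. Every induced library was below every control library, and the control libraries were themselves split, with number 1 the lowest. The annotation names 7 pseudogenes after ATP5G1, and SUMO2P17 overlaps it on the opposite strand, so its single values are uncertain. The log2 change was -1.45 (SE 0.23, adjusted p = 0.00418). Without control libraries 2 and 3 it was -0.98 with an adjusted p of 0.0977. That was the highest over 22 alternatives, which began at 7.79e-05, and in the other 21 it passed.

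CYCS, cytochrome c, which carries electrons from complex III to complex IV and starts apoptosis when it leaves the mitochondrion, depended more on the choice of controls. It was at 29.1, 30.4 and 28.7 FPKM in CFPAC-1 induced, against 41.7, 95.6 and 89.01 FPKM in CFPAC-1 control. The 3 induced values were nearly equal, and control 1 lay closer to them than to controls 2 and 3. The log2 change was -1.24 (SE 0.35, adjusted p = 0.0368) and -0.49 without controls 2 and 3. Its adjusted p ran from 0.00155 to 0.586 over 22 alternatives, and 11 of them kept the call. The 40 pseudogenes of CYCS leave its single values uncertain.

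Of complex I, NDUFA9, an accessory subunit near the ubiquinone site, was the call whose log2 change moved least with the choice of controls. It was at 4.04, 4.93 and 5.11 FPKM in CFPAC-1 induced and 8.07, 8.61 and 8.36 FPKM in CFPAC-1 control. Here the 3 controls were close together and above all 3 induced libraries. The log2 change was -0.72 (SE 0.16, adjusted p = 0.0138), and -0.68 without controls 2 and 3. The adjusted p ran from 0.00353 to 0.148 over 22 alternatives, 18 of which kept the call. NDUFB8, an accessory subunit of the membrane arm, was at 24.0, 36.1 and 35.2 FPKM in induced and 43.6, 64.0 and 65.8 FPKM in control cells, with a log2 change of -0.84 (adjusted p = 0.0316) and of -0.47 without controls 2 and 3. Complex I as a whole had 2 of 36 genes lower, where 8.77% of all tested genes were called lower. At an unadjusted p under 0.05, 14 of the 36 were lower, against 20.7% of all tested genes. The median log2 change of the 36 was -0.40, and that of all tested genes was -0.09. Without controls 2 and 3 these medians were -0.28 and -0.05.

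The 4 subunits of complex II, which is also the succinate dehydrogenase of the tricarboxylic acid cycle, had changes of both signs with all libraries, 2 above 0 and 2 below. Without controls 2 and 3 all 4 were below 0. SDHB, its iron-sulfur subunit, was at 33.3, 35.1 and 32.1 FPKM in CFPAC-1 induced and 48.9, 63.8 and 65.5 FPKM in CFPAC-1 control, a log2 change of -0.80 (SE 0.18, adjusted p = 0.0174). It was -0.53 without controls 2 and 3. SDHA, the flavoprotein that holds the succinate site, was at 39.0, 39.6 and 41.0 FPKM in induced and 70.6, 19.9 and 19.2 FPKM in control cells. Its control 1 was above, and its controls 2 and 3 below, every induced library, so the log2 change of 0.39 (adjusted p = 0.499) was -0.81 without those 2. SDHC and SDHD, the membrane anchors, had log2 changes of 0.038 and -0.32 (adjusted p = 0.889 and 0.208), and of -0.094 and -0.30 without those 2 libraries.

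In complex III, UQCRFS1, the Rieske iron-sulfur protein that takes electrons from ubiquinol, was at 18.5, 26.2 and 24.9 FPKM in CFPAC-1 induced and 32.0, 62.1 and 62.1 FPKM in CFPAC-1 control. All induced values were lower, and the log2 change was -1.09 (SE 0.27, adjusted p = 0.024), against -0.47 without controls 2 and 3. It was 1 of 9 genes of complex III that passed, where 8.77% of all tested genes were called lower. CYC1, the haem protein cytochrome c1 that hands electrons to cytochrome c, had 137, 178 and 155 FPKM in induced and 216, 122 and 122 FPKM in control cells, with the induced libraries between control 1 and the other two. Its log2 change was 0.078 (adjusted p = 0.852) and turned to -0.47 without controls 2 and 3.

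In complex IV, 1 of 11 genes fell, where 8.77% of all tested genes were called lower. It was COX6B1, a subunit on the outer face of the enzyme. Its level was 35.4, 49.3 and 46.3 FPKM in CFPAC-1 induced and 53.9, 96.0 and 102 FPKM in CFPAC-1 control. The log2 change was -0.89 (limma adjusted p = 0.0391). This was the least stable of the 9 calls, kept in 8 of 22 alternatives, and the log2 change was -0.31 without controls 2 and 3. COX7A2, a small subunit at the dimer face, had a larger change that did not pass: 11.9, 17.9 and 16.4 FPKM in induced and 15.6, 63.8 and 64.1 FPKM in control cells (log2 change -1.34, adjusted p = 0.0557). Control 1 lay among the induced values, far below controls 2 and 3, and without those 2 the log2 change was -0.03.

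Complex V had 3 of 15 genes lower, where 8.77% of all tested genes were called lower. ATP5A1, the alpha subunit of the catalytic head, was at 14.3, 17.2 and 15.9 FPKM in CFPAC-1 induced and 21.9, 39.8 and 43.7 FPKM in CFPAC-1 control, a log2 change of -1.05 (SE 0.24, adjusted p = 0.0165) that was -0.45 without controls 2 and 3. ATP5L, the g subunit in the membrane part, was at 26.6, 36.4 and 34.3 FPKM in induced and 45.3, 66.9 and 85.5 FPKM in control cells (log2 change -0.97, adjusted p = 0.0355, and -0.48 without controls 2 and 3). ATP5B, the partner of ATP5A1 in the head and the most abundant of the 76, was at 368, 356 and 351 FPKM in induced and 559.9, 448 and 469 FPKM in control cells. Its induced libraries were all lower, but the log2 change of -0.45 (95% interval -0.78 to -0.12) did not pass (adjusted p = 0.0605), nor did that of -0.64 without controls 2 and 3 (adjusted p = 0.126). In bulk RNA, fewer cells that express a gene and less RNA per cell cannot be told apart.

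**Figure D2:**
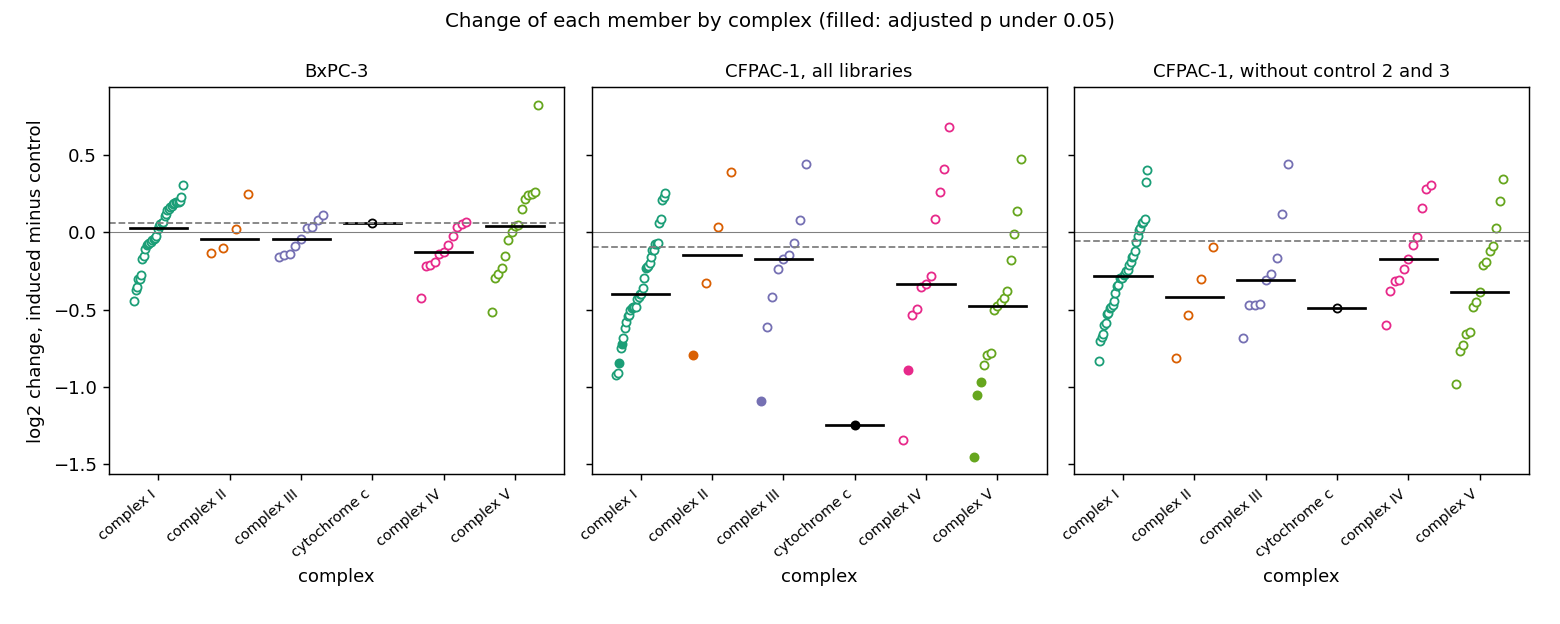
log2 change, induced minus control, of each gene (points; filled where the adjusted p was under 0.05) by complex, in BxPC-3, in CFPAC-1 with all libraries, and in CFPAC-1 without control libraries 2 and 3. Short black lines mark the median of each complex and the dashed line that of all 12860 tested genes. The 9 filled points are all in the middle panel, and none is left in the panel on the right.

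In BxPC-3 cells none of the 76 genes passed limma's test after induction, and 0.334% of all tested genes did. At an unadjusted p under 0.05, 1 was higher and 1 lower, against 5.86% and 2.66% of all tested genes. The median log2 change of the 76 was -0.01, with 38 below 0, and that of all tested genes was 0.06. Induced and control libraries did not overlap for 2 higher and 5 lower genes, against 12.4% and 4.84% of all tested genes. CYCS was at 47.7, 103 and 93.2 FPKM in BxPC-3 induced and 55.3, 84.4 and 86.5 FPKM in BxPC-3 control, 2 groups that overlapped, with a log2 change of 0.059 (95% interval -0.71 to 0.83). ATP5B had 425, 464 and 487 FPKM in induced and 559.9, 489.9 and 482 FPKM in control cells (log2 change -0.15, 95% interval -0.49 to 0.18). ATP5G1 had a log2 change of -0.29 in BxPC-3 (95% interval -0.81 to 0.22). The BxPC-3 intervals of CYCS and ATP5G1 do not reach the log2 changes of these genes in CFPAC-1 with all libraries, but that of CYCS includes its value without controls 2 and 3. The difference of the changes did not pass for either gene (adjusted p = 0.15 for CYCS and 0.0836 for ATP5G1, and 0.622 and 0.346 without controls 2 and 3).

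The gene with an unadjusted p under 0.05 on the higher side was ATP5D, the delta subunit in the central stalk of ATP synthase (GRCh38, chr19:1241746-1244826, plus strand). It was at 20.4, 30.1 and 33.5 FPKM in BxPC-3 induced, against 14.6, 12.1 and 19.1 FPKM in the BxPC-3 controls. In CFPAC-1 it had 10.5, 12.7 and 12.6 FPKM in induced cells, against 15.9, 18.0 and 18.0 FPKM in the controls. All BxPC-3 induced libraries were above their controls and all CFPAC-1 induced libraries below theirs. Neither change passed by itself: the log2 change was 0.82 (adjusted p = 0.246) in BxPC-3 and -0.50 (adjusted p = 0.121) in CFPAC-1, where it was -0.39 without controls 2 and 3. The difference of the changes, BxPC-3 minus CFPAC-1, was 1.33 (SE 0.31, adjusted p = 0.0473). It was the 1 difference of the 76 that passed, where 2.45% of all tested genes passed, 1.34% as higher. Without CFPAC-1 controls 2 and 3 it was 1.21, and over 21 alternatives the adjusted p ran from 0.00714 to 0.179, with 7 that kept the call. No gene overlaps ATP5D and no pseudogene is named after it in the annotation used.

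On the lower side was ATP5G2, a second gene for the c subunit (GRCh38, chr12:53632726-53677408, minus strand). It was at 18.8, 14.5 and 14.8 FPKM in BxPC-3 induced and 22.4, 26.5 and 21.0 FPKM in BxPC-3 control, groups that did not overlap (log2 change -0.51, adjusted p = 0.385). In CFPAC-1 it was at 44.9, 50.8 and 49.8 FPKM in induced and 37.8, 32.1 and 34.2 FPKM in control cells, with all induced libraries higher (log2 change 0.47, adjusted p = 0.0668, and 0.35 without controls 2 and 3). The difference of the changes was -0.99 with an adjusted p of 0.0518, which missed the threshold, and -0.86 without those 2 libraries.

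ATP5G1, ATP5G2 and ATP5G3 differ in their targeting peptides and encode the same mature c subunit. Their shares of the summed message were picked out after the values were seen and are given without a test. ATP5G2 made up 38.1%, 24.6% and 24.8% of the summed FPKM of the 3 in BxPC-3 induced and 30.7%, 37.1% and 30.8% in BxPC-3 control. It made up 62.5%, 54.8% and 55.1% in CFPAC-1 induced and 36.9%, 32.9% and 34.8% in CFPAC-1 control. ATP5G2 was at 54.8% or more in the 3 CFPAC-1 induced libraries and at 38.1% or less in the other 9. The share of ATP5G1 was 13.9%, 11.6% and 10.2% in CFPAC-1 induced and 20.0%, 35.2% and 34.6% in CFPAC-1 control. The sum itself was 71.8, 92.7 and 90.3 FPKM in CFPAC-1 induced and 103, 97.4 and 98.3 FPKM in CFPAC-1 control.

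The promoters of ATP5G1 and ATP5G2 are shown because these genes for one subunit had changes of opposite sign in CFPAC-1, and that of CYCS because cytochrome c was among the 9 that fell. Each runs from 250 bases before to 50 after a transcription start in RefSeq on GRCh38.p14, 5′ to 3′ on the gene's strand, with CCAAT boxes, E-boxes and core sites of the factor NRF1 in capitals (the reverse complement counts as a match).
ATP5G1 (now ATP5MC1), chr17:48892537-48892836, plus strand: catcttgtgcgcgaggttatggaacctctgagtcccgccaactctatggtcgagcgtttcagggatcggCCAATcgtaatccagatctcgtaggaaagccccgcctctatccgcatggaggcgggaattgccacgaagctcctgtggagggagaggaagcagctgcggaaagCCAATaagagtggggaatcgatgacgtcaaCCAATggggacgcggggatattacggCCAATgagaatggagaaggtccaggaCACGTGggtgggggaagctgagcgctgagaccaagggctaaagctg
ATP5G2 (now ATP5MC2), chr12:53676034-53676333, minus strand: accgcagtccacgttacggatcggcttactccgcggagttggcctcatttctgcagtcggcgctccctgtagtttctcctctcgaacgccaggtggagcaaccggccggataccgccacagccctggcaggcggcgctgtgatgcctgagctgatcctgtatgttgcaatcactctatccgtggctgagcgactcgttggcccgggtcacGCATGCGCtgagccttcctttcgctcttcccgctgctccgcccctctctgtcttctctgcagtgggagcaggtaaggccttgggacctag
CYCS, chr7:25125211-25125510, minus strand: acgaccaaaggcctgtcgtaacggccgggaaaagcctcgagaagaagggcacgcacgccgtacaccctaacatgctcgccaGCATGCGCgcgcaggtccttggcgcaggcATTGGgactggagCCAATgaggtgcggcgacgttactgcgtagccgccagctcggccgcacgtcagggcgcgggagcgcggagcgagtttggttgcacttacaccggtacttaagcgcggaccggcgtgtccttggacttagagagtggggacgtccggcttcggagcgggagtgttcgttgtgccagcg
For ATP5G2 only the first listed of 3 RefSeq starts is shown, while ATP5G1 and CYCS have 1 start each. The ATP5G1 window holds CCAAT 4 times and the E-box CACGTG once. The ATP5G2 window holds GCATGCGC once, and that of CYCS holds it once with CCAAT 2 times, one of them on the other strand.

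**Figure D3:**
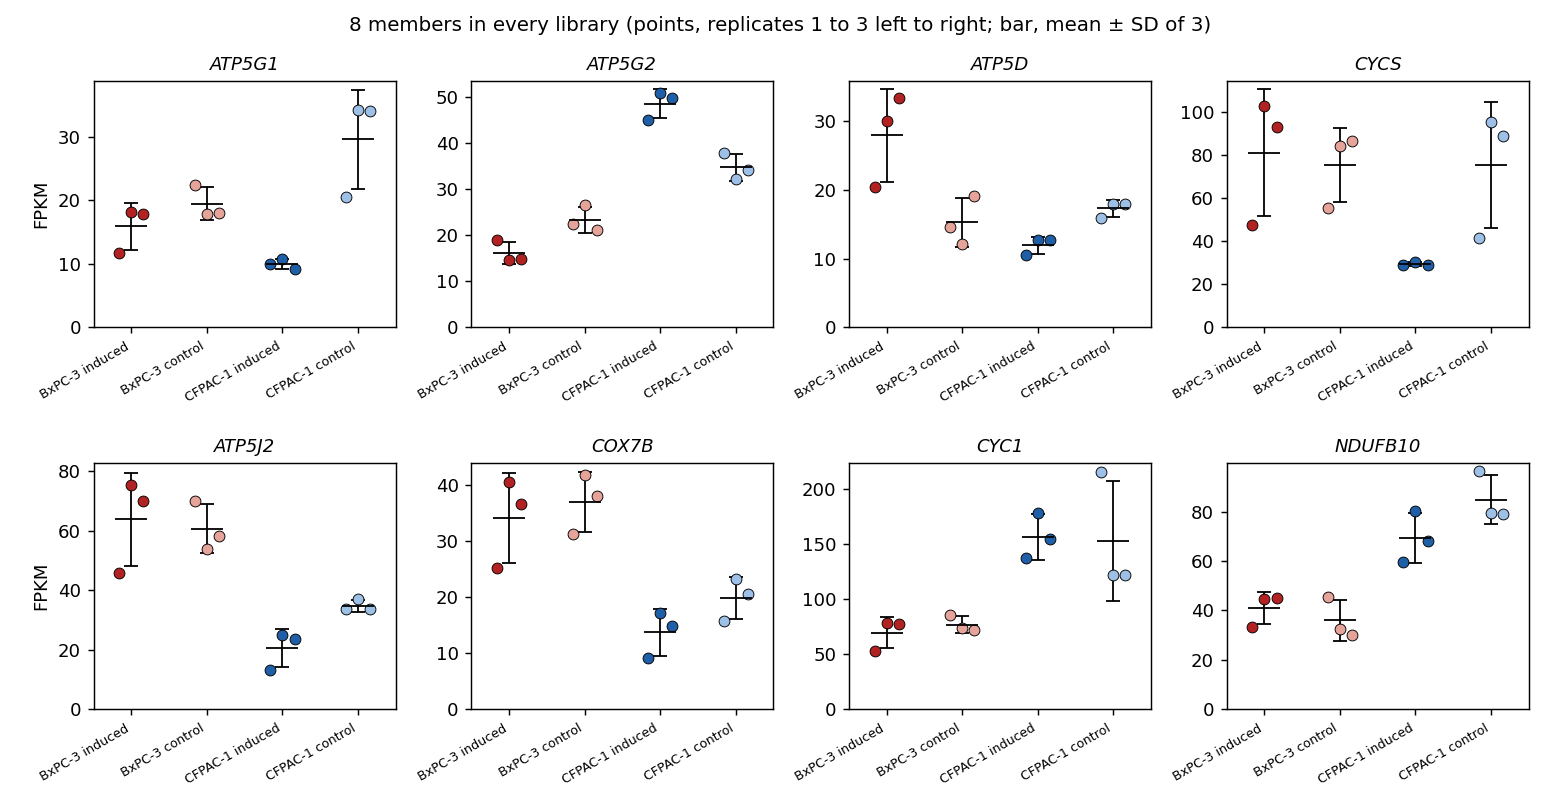
FPKM of 8 genes in every library (points, replicates 1 to 3 from left to right in each group; bar and whiskers, mean ± SD of 3 libraries; each axis starts at 0). ATP5G1 and ATP5G2 lie on opposite sides of their controls in CFPAC-1 induced, ATP5D is highest in BxPC-3 induced, and CYCS shows control 1 of CFPAC-1 at 41.7 FPKM against 95.6 and 89.01 FPKM.

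More genes passed between the lines than between the states. In induced cells 15 of the 76 genes were higher in BxPC-3 and 4 lower, or 25.0% in either direction, against 36.2% of all tested genes (21.4% higher and 14.8% lower). In control cells 4 were higher and 7 lower, or 14.5%, against 26.2% of all tested genes (13.1% in each direction). In both states the share was below the background. The median log2 difference, BxPC-3 minus CFPAC-1, was 0.28 in induced cells, where all tested genes had 0.12, and -0.06 in control cells, where they had -0.07. Without CFPAC-1 controls 2 and 3 the counts were 19 higher and 6 lower in induced cells (44% of all tested genes passed, 25.7% as higher and 18.3% as lower) and 5 higher and 5 lower in control cells (27.5% passed, 13.8% as higher and 13.7% as lower). The log2 differences of induced cells are identical in both fits. Their 19 calls all held, and of the 11 in control cells 4 did, COX7B, CYC1 and NDUFB10 among them.

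ATP5J2, the f subunit in the membrane part of ATP synthase, had the largest difference in induced cells on the higher side. It was at 45.9, 75.5 and 70.0 FPKM in BxPC-3 induced and 13.2, 24.9 and 23.6 FPKM in CFPAC-1 induced (log2 difference 1.60, SE 0.26, adjusted p = 0.000689). In control cells it was at 69.9, 54.0 and 58.2 FPKM in BxPC-3 and 33.5, 37.1 and 33.7 FPKM in CFPAC-1 (log2 difference 0.78, adjusted p = 0.0439). Without CFPAC-1 controls 2 and 3 that difference was 0.83 and the call was lost. The lines did not overlap in either state. The gene overlaps PTCD1, with which it also forms a listed read-through gene, so reads may be shared.

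COX7B, a small subunit of complex IV, was higher in BxPC-3 in both states, at 25.2, 40.5 and 36.6 FPKM in BxPC-3 induced against 9.10, 17.1 and 14.9 FPKM in CFPAC-1 induced (log2 difference 1.27, adjusted p = 0.00321). In control cells it was at 31.2, 41.7 and 38.0 FPKM in BxPC-3 and 15.8, 23.3 and 20.5 FPKM in CFPAC-1 (log2 difference 0.87, adjusted p = 0.0294, and 1.17 without CFPAC-1 controls 2 and 3). COX5A, a nuclear subunit of complex IV, had 97.4, 147 and 147 FPKM in BxPC-3 induced and 63.0, 69.5 and 66.3 FPKM in CFPAC-1 induced (log2 difference 0.94, adjusted p = 0.00237). NDUFA5 was the 1 gene of complex I that was higher in BxPC-3 in both states, with log2 differences of 0.75 in induced and 0.50 in control cells (adjusted p = 0.00323 and 0.0316). In control cells COX5A had a log2 difference of 0.58 (adjusted p = 0.0377). Without CFPAC-1 controls 2 and 3 the control-cell differences were 0.74 for COX5A and 0.51 for NDUFA5, and both calls were lost.

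CYCS differed in induced cells, at a log2 difference of 1.36 (adjusted p = 0.0113), and was at 0.061 in control cells (95% interval -0.71 to 0.83). Without CFPAC-1 controls 2 and 3 the control-cell difference was 0.81 (adjusted p = 0.169). ATP5A1, ATP5F1 and COX6B1 had differences of 1.26, 1.25 and 1.26 in induced cells, all higher in BxPC-3 (adjusted p = 0.00202, 0.00219 and 0.00311). ATP5F1 encodes the b subunit of the peripheral stalk. SDHB was higher by 0.88 and UQCRFS1 by 1.00 on the log2 scale (adjusted p = 0.00346 and 0.0144).

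Among genes that were lower in BxPC-3, ATP5G2 had the largest difference in induced cells, at a log2 difference of -1.55 (SE 0.16, adjusted p = 3.88e-05), and had -0.56 in control cells (adjusted p = 0.0279), where the call was lost without CFPAC-1 controls 2 and 3 (log2 difference -0.68). CYC1 was at 53.2, 78.5 and 77.5 FPKM in BxPC-3 induced and 137, 178 and 155 FPKM in CFPAC-1 induced, a log2 difference of -1.17 (adjusted p = 0.00384). In control cells CYC1 was at 85.5, 73.7 and 71.7 FPKM in BxPC-3 and 216, 122 and 122 FPKM in CFPAC-1 (log2 difference -0.93, adjusted p = 0.0165, and -1.48 without CFPAC-1 controls 2 and 3). The lines did not overlap for CYC1 in either state.

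NDUFB10, an accessory subunit of the membrane arm of complex I, was at 33.5, 44.8 and 44.9 FPKM in BxPC-3 induced and 59.8, 80.2 and 68.0 FPKM in CFPAC-1 induced (log2 difference -0.74, adjusted p = 0.0162). The control values were 45.4, 32.5 and 30.1 FPKM in BxPC-3 and 96.4, 79.4 and 78.9 FPKM in CFPAC-1 (log2 difference -1.23, adjusted p = 0.00117), the largest among the 76 in that state with all libraries, and the difference was -1.42 without CFPAC-1 controls 2 and 3. NDUFB3, NDUFB6 and NDUFS1 passed in control cells, with log2 differences of -0.82, -0.86 and -0.58, and -0.69, -0.71 and -0.53 without CFPAC-1 controls 2 and 3, where none of the 3 passed. Of genes outside the calls with all libraries, SDHA in control cells went to -1.36 and COX7A2 to 1.37 once those 2 libraries were left out, against -0.15 and 0.053 with them. Both passed without those libraries in both states, as did NDUFA1 and NDUFB9, but in control cells these calls set 3 BxPC-3 libraries against 1 CFPAC-1 library.

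**Figure D4:**
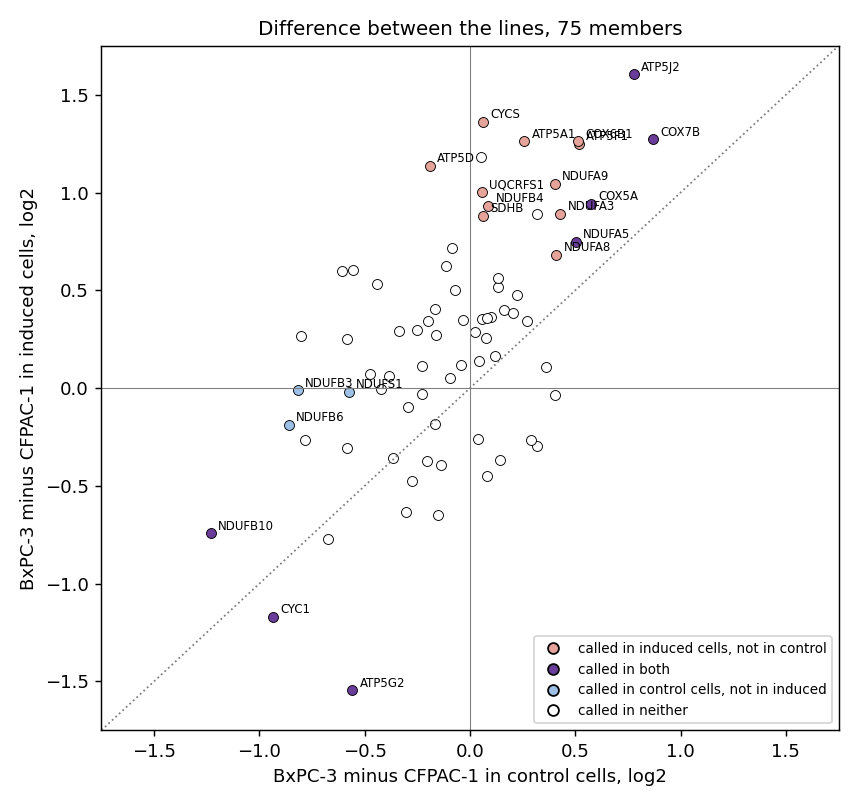
log2 difference between the lines, BxPC-3 minus CFPAC-1, for 75 of the 76 genes in control cells (x axis) and in induced cells (y axis), with the dotted line where both are equal. All libraries are used. Named points had an adjusted p under 0.05 in at least one state, ATP5G2 lies lowest at -1.55 in induced cells and ATP5J2 highest at 1.60.

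Library 1 of each induced group was low for these genes. In BxPC-3 induced, library 1 was below both libraries 2 and 3 for 67 of the 76, and the median of library 1 minus the mean of the other two was -0.49 on the log2 scale. Over all tested genes 36.4% were below both, and the median was 0.08. In CFPAC-1 induced the same held for 66 of the 76, with a median of -0.38, against 36.9% and 0.07 over all tested genes. In control cells library 1 was below both others for 23 of the 76 in BxPC-3 and 41 in CFPAC-1, with medians of 0.06 and -0.09. Over all tested genes 37.8% and 46.6% were below both, with medians of 0.05 and -0.006. Over all tested genes the value differed with transcript length: those under 1000 bases had a median of -0.04 in BxPC-3 induced and -0.05 in CFPAC-1 induced, and those over 3000 bases 0.36 and 0.34. Of the 76, the 60 under 1000 bases had -0.54 and -0.40, and the 16 of 1000 bases or more -0.42 and -0.25. Lengths are medians over annotated coding transcripts, so a gene with a long message may be classed as short. They were found for 86.3% of the tested genes.

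The direction in BxPC-3 differed with the library number. Within number 1, induced minus control, 67 of the 76 were below 0, with a median log2 change of -0.36. Within numbers 2 and 3 there were 55 above 0, with a median of 0.16. Of all 12860 tested genes, 5052 were below 0 within number 1 (median 0.09). Within numbers 2 and 3, 7156 of them were above 0 (median 0.05). The same turn was seen in 77 mitochondrial ribosomal protein genes, with 57 below 0 within number 1 and 70 above 0 within numbers 2 and 3. All 11 genes of complex IV were below 0 within number 1, and 7 of the 11 above 0 within numbers 2 and 3. In CFPAC-1 both were negative, with medians of -0.55 (69 below 0) and -0.28 (50 below 0). All 12860 tested genes had medians of 0.01 (6071 below 0) and -0.13 (7320 below 0) in that line. With induced library 1 of both lines left out, a setting chosen after the data were seen, 9 of the 76 fell in CFPAC-1 and 3 rose, against 11.6% and 7.77% of all tested genes. In BxPC-3 1 rose, ATP5D with a log2 change of 1.03, against 0.645% of all tested genes. No label names a batch, and what sets library 1 apart was not tested.

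**Figure D5:**
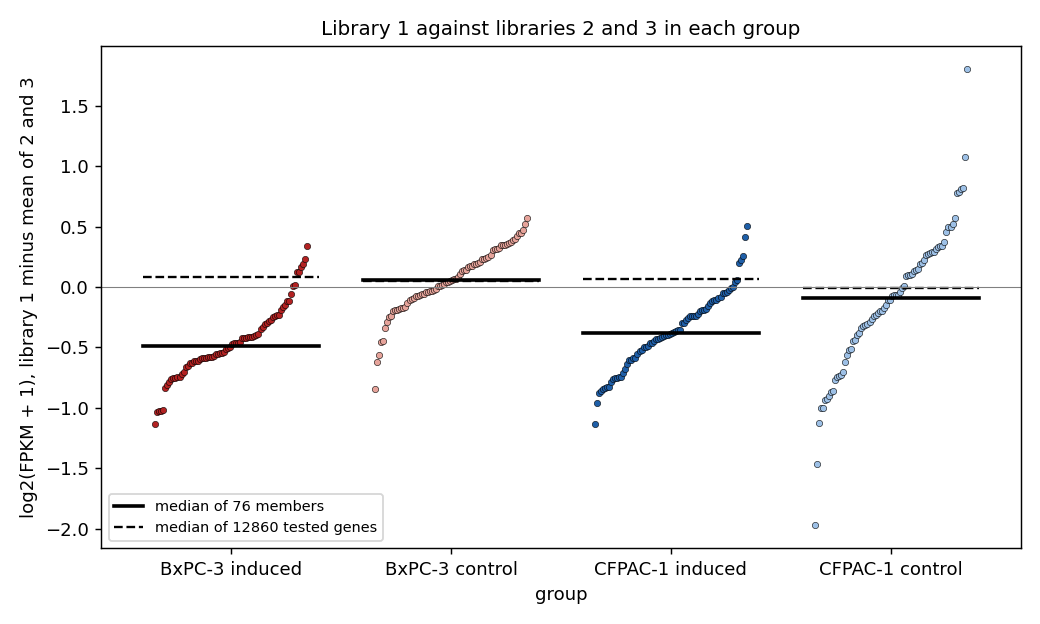
log2(FPKM + 1) in library 1 minus the mean of libraries 2 and 3 for each of the 76 genes, in rank order within each group, with the median of the 76 (solid line) and of all 12860 tested genes (dashed line). The solid line lies at -0.49 in BxPC-3 induced and -0.38 in CFPAC-1 induced, and near the dashed line in both control groups.

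The 13 mRNAs encoded in mitochondrial DNA, whose products form the core of complexes I, III, IV and V, took a far larger part of each library. Their summed FPKM was 10.1 to 15.3 times that of the 76 nuclear genes in BxPC-3 induced, 14.1 to 17.4 times in BxPC-3 control, 6.06 to 12.4 times in CFPAC-1 induced and 8.48 to 18.9 times in CFPAC-1 control. The sum was 18197, 42820 and 46161 FPKM in CFPAC-1 induced and 84399, 40599 and 40624 FPKM in CFPAC-1 control. Library 1 was thus the lowest of the induced and the highest of the control libraries, while libraries 2 and 3 of both groups lay close together. In CFPAC-1, 2 of the 13 fell, MT-ND5 and MT-ND6, with log2 changes of -0.88 and -0.73 (adjusted p = 0.0425 and 0.0423), where 8.77% of all tested genes were lower, and the median was -0.73. Within number 1, induced minus control, all 13 were below 0, with a median of -2.32. Within numbers 2 and 3 there were 8 above 0, with a median of 0.10. The medians of all tested genes were 0.01 within number 1 and -0.13 within numbers 2 and 3. Without controls 2 and 3 none of the 13 passed limma's test (MT-ND5 had -1.29 and MT-ND6 -0.94), while 11 were lower at an unadjusted p under 0.05, against 9.82% of all tested genes, and the median was -1.46. In BxPC-3 none of the 13 passed limma's test, and none had an unadjusted p under 0.05, but all 13 were below 0 with a median of -0.43. Induced and control libraries did not overlap for 9 of the 13, all lower, against 4.84% of all tested genes. Their summed FPKM was 51944, 49394 and 48294 in BxPC-3 induced and 79452, 62327 and 65072 in BxPC-3 control. FPKM is relative to the whole library, and mitochondrial rows took 11.6% to 34.0% of it. With FPKM rescaled to the rest of the library, 28 of the 76 nuclear genes fell in CFPAC-1 in place of 9, while the share of all tested genes that fell was 13.7% in place of 8.77%. The median of the 76 was -0.52, and the count in BxPC-3 was again 0 (0.233% of all tested genes). At an unadjusted p under 0.05, 1 was higher and 2 lower in BxPC-3, against 4.25% and 3.06% of all tested genes. The median of all tested genes was then -0.18 in CFPAC-1 and 0.02 in BxPC-3.

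Subunit isoforms of other tissues or conditions were mostly absent. Of 9, 4 were tested, and COX4I2, COX6A2, COX7A1, COX7B2 and COX8C stayed under the minimum level. NDUFA4L2, an oxygen-responsive relative of the complex IV subunit NDUFA4, was at 9.17, 14.6 and 12.8 FPKM in CFPAC-1 induced and 3.26, 0.0754 and 0.128 FPKM in CFPAC-1 control. It rose by 2.91 on the log2 scale (adjusted p = 0.00285), and by 1.61 without controls 2 and 3 (adjusted p = 0.0169), where 3 induced libraries were set against 1 control. In BxPC-3 its highest value was 0.22 FPKM. NDUFA4 itself was at 33.2, 34.6 and 33.6 FPKM in CFPAC-1 induced and 35.8, 55.7 and 55.3 FPKM in CFPAC-1 control (log2 change -0.49, adjusted p = 0.107, and -0.082 without controls 2 and 3). Of the other three, UQCRHL and COX6B2 did not pass within either line, nor did COX7A2L, which helps join complexes III and IV and was lower in BxPC-3 than in CFPAC-1, at log2 differences of -1.64 in induced and -1.67 in control cells (adjusted p = 0.00321 and 0.00376), the second being -1.25 without CFPAC-1 controls 2 and 3.

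Other mitochondrial genes were read from lists chosen with earlier results known. In CFPAC-1 the lower calls were 11 of 77 mitochondrial ribosomal protein genes (median log2 change -0.39), 5 of 19 genes of pyruvate dehydrogenase and the tricarboxylic acid cycle (-0.35), 4 of 15 biogenesis regulators (-0.30), 2 of 17 complex I assembly factors (-0.38), 3 of 23 of complex IV (-0.22), 2 of 13 of complexes II, III and V (-0.40), and 1 of 9 carriers (0.19). Over all tested genes 8.77% were called lower and the median was -0.09. None of these lists had a gene that rose. Without controls 2 and 3 none of their genes passed limma's test, while at an unadjusted p under 0.05 there were 11, 8, 2, 1, 4, 2 and 3 lower genes in the same order and 2 higher carriers, against 9.82% lower and 8.25% higher of all tested genes. The medians in the same order were then -0.29, -0.46, -0.33, -0.21, -0.29, -0.38 and -0.059. In BxPC-3 none of them passed with all libraries. At an unadjusted p under 0.05 there were 2 higher ribosomal protein genes, 1 lower regulator and 3 higher complex IV assembly factors. The other 4 lists had none, against 5.86% higher and 2.66% lower of all tested genes. The BxPC-3 medians in the same order were 0.15, -0.04, -0.04, 0.12, 0.095, -0.12 and 0.18. All tested genes had a median of 0.06 there. Of the 77 ribosomal protein genes 67 were above 0 in BxPC-3, against 59.1% of all tested genes. MRPS12 had the largest fall of the ribosomal list in CFPAC-1 (log2 change -1.83, limma adjusted p = 0.0224, and -0.62 without controls 2 and 3).

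DLAT, the acetyl-transferring core of pyruvate dehydrogenase, was at 11.9, 8.80 and 9.45 FPKM in CFPAC-1 induced and 21.2, 31.6 and 32.4 FPKM in CFPAC-1 control, a log2 change of -1.40 (adjusted p = 0.00205), and -1.02 without controls 2 and 3. FH, fumarate hydratase, had a log2 change of -0.86 (adjusted p = 0.0061), and -0.94 without those 2 libraries. TFAM, which packages mitochondrial DNA and helps start its transcription, was at 4.56, 5.03 and 5.19 FPKM in CFPAC-1 induced and 9.06, 11.4 and 11.4 FPKM in CFPAC-1 control, a log2 change of -0.96 (adjusted p = 0.0117) that was -0.76 without them. PPRC1, a coactivator of mitochondrial genes, had -0.83 (adjusted p = 0.0244) and -0.55 without them, and its relative PPARGC1A had no value above 0.154 FPKM. SLC25A5, which exchanges ADP for ATP across the inner membrane, was at 129, 175 and 173 FPKM in CFPAC-1 induced and 251, 375 and 399 FPKM in CFPAC-1 control (log2 change -1.08, adjusted p = 0.00787, and -0.67 without controls 2 and 3). VDAC1, the main outer membrane channel, had 0.55 (adjusted p = 0.134) and -0.04 without controls 2 and 3.

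Of 14 tested genes of the mitochondrial response to oxygen, 4 rose and 1 fell in CFPAC-1, where 7.85% of all tested genes rose and 8.77% fell. None was called in BxPC-3 by limma. At an unadjusted p under 0.05, 2 were higher there and none lower, against 5.86% and 2.66% of all tested genes. In BxPC-3 10 of the 14 were above 0, with a median log2 change of 0.18, where all tested genes had 0.06. The BxPC-3 groups did not overlap for 5 higher genes and 1 lower, against 12.4% and 4.84% of all tested genes. BNIP3L, a receptor for the removal of mitochondria, was at 169, 58.2 and 58.5 FPKM in CFPAC-1 induced, against 15.6, 7.67 and 7.06 FPKM in CFPAC-1 control (log2 change 3.00, adjusted p = 0.00217, and 2.34 without controls 2 and 3). The others were PDK1 and PDK4, kinases that switch pyruvate dehydrogenase off (log2 changes 1.24 and 1.62, adjusted p = 0.0275 and 0.0206), and EGLN3, an oxygen-sensing hydroxylase (2.82, adjusted p = 0.00823). Without controls 2 and 3 these 3 had 0.44, 1.77 and 2.09. HIF1A, the oxygen-regulated subunit of HIF-1, fell (log2 change -1.93, adjusted p = 0.00174), and it was the 1 gene of the list that passed without controls 2 and 3, against 1 control library (log2 change -1.34, adjusted p = 0.0457).

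Of the 76 genes, 62 had a promoter in the RefSeq table, and the first listed start of each was searched on both strands for 5 motifs, none of which is contained in another. GCATGCGC, the core of the site of NRF1, a factor known to bind promoters of respiratory genes, was in 22.6% of the 62, in 5.56% of 9170 promoters of the other tested genes and in 3.27% of all 27305 promoters. AAGATGGC, the core of the YY1 site, was in 17.7%, 5.66% and 3.03%, and CCGGAAG, the core bound by ETS factors such as GABPA, in 30.6%, 20.1% and 10.7%. CCAAT was in 32.3%, 36.8% and 35.7%, and CACGTG in 11.3%, 10.1% and 7.43%. These shares are descriptions of letters in a window, and the members had been chosen by function. The factors themselves did not pass within either line: the log2 change of NRF1 was -0.30 in CFPAC-1 and -0.19 in BxPC-3 (adjusted p = 0.157 and 0.808), GABPA -0.89 and 0.12 (adjusted p = 0.111 and 0.99), and YY1 -0.002 and 0.22 (adjusted p = 1 and 0.945). Without CFPAC-1 controls 2 and 3 the CFPAC-1 changes were -0.33, 0.11 and -0.44 in that order, and none passed.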

How the data were processed

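Total RNA from BxPC-3 and CFPAC-1 cells was extracted with TRIzol and went through an Illumina library protocol (source: the labels' protocols). FastQC, StringTie and GRCh38 are named, without tool versions, per the submitters' processing notes. How strand and reads with several matches were handled, the aligner and the annotation were not given in the sources used here. What the authors deposited was 1 table of log2(FPKM + 1), per the file headers, with 60564 rows, of which 23450 were at 0 in every library. FPKM was recovered by undoing the log. The deposited log2 values hold no counts, whole reads could not be recovered, and the depth is unknown, so no count test was run and no counting interval is given.

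Genes with 1 FPKM or more in 3 or more libraries were tested (12860). limma 3.58.1 in R 4.3.3 fitted 4 group means over all 12 libraries to log2(FPKM + 1), with 5 two-sided contrasts and Benjamini-Hochberg adjustment over all tested genes at 0.05. Changes are on the log2(FPKM + 1) scale, which understates those of low genes. The fit was also run on simulated data with independent noise of capped spread and no outlying libraries. That run therefore does not cover the split among the CFPAC-1 controls. Positions and lengths came from GENCODE release 29 on GRCh38, promoters from RefSeq on GRCh38.p14. Figures were drawn with matplotlib in Python. The values of 1 gene are not reported here; it stays in the counts and medians, and the figures that name genes show the other 75.

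The 76 genes, the other lists and the tests were chosen with earlier results of these data known. Genes to be named were, in each contrast, up to 3 called genes of largest change in each direction, with all libraries and without CFPAC-1 control 2 and 3; the highest and lowest gene of each complex; the complex II genes and CYCS; and from each other list the 2 of highest level and up to 2 called genes of largest change in each direction. All other genes named were chosen after their values were seen. The main fit did not pair libraries by replicate number. Alternatives were another pseudocount (0.1 FPKM), 2 other filters, quantile normalization, rescaling without mitochondrial rows, another variance model, a replicate block, each line alone, and libraries left out.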

Additional observations from a re-analysis of the deposited data

Results flagged for a closer look

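ATP5D, the delta subunit of ATP synthase, had changes in opposite directions in the lines. Its log2 change, induced minus control, was 0.82 in BxPC-3 and -0.50 in CFPAC-1, and the difference, BxPC-3 minus CFPAC-1, was 1.33 (95% interval 0.65 to 2.00, limma adjusted p = 0.0473). Without CFPAC-1 control 2 and 3 the change in CFPAC-1 was -0.39 and the difference 1.21. The adjusted p ran from 0.00714 to 0.179 over 21 alternatives and 14 of them lost the call. Neither change passed within its line with all libraries.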

How the results depend on the processing

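No called gene changed direction under the alternatives that were run, while 14 of the 76 genes did in CFPAC-1 without CFPAC-1 control 2 and 3. The median log2 change of the 76 ran from -0.52 to -0.24 in CFPAC-1 and from -0.087 to 0.15 in BxPC-3, where its sign depended on the setting. For induced against control CFPAC-1 cells, 9 of the 76 genes passed with all libraries, 5 with no filter on low values, 28 after rescaling without mitochondrial rows, 16 with the replicate block, 1 with each line fitted alone and 0 without CFPAC-1 control 2 and 3. The share of all tested genes that passed was 16.6% with all libraries and 4.36%, 19.7%, 18.9%, 2.83% and 1.73% in those settings. Leaving out each library in turn gave 1 (without CFPAC-1 control 2, where 3.93% of all tested genes passed) to 26 (without CFPAC-1 control 1, where 42% did). For BxPC-3 cells 0 passed (0.334% of all tested genes did), and 1 with induced library 1 of both lines left out (1.08%), a setting chosen after the data were seen. Leaving out each library gave 0 throughout. For the difference of the changes 1 passed (2.45% of all tested genes did), and 0 with a pseudocount of 0.1 FPKM (1.27%). With induced library 1 of both lines left out 3 passed (4.84%). The median log2 difference of the 76 was 0.37, and 0.28 without CFPAC-1 control 2 and 3. Leaving out each library gave 0 to 22, the highest without CFPAC-1 control 1, where 32.3% of all tested genes passed. With no filter, with quantile normalization and without BxPC-3 control 1 the call was ATP5G2 in place of ATP5D. Between the lines, 19 genes passed in induced cells (36.2% of all tested genes did) and 11 in control cells (26.2%). In induced cells other settings gave 18 (mean of at least 5 FPKM, 35.3%) to 27 (replicate block, 38%). Single libraries left out gave 15 (without BxPC-3 induced 3, 26.7%) to 31 (without CFPAC-1 control 1, 47.3%). In control cells other settings gave 8 (pseudocount of 0.1 FPKM, 25.5%) to 15 (replicate block, 28%, and induced library 1 of both lines left out, 31.5%). Single libraries left out there gave 3 (without BxPC-3 control 3, 17.9%) to 18 (without CFPAC-1 control 1, 37.5%). The replicate block gave 16, 0, 1, 27 and 15 calls in these 5 comparisons, where 18.9%, 0.257%, 2.38%, 38% and 28% of all tested genes passed. The main fit did not pair libraries by number. Deviations of same-numbered libraries correlated at 0.151, 0.110 and 0.0535 in BxPC-3 and at -0.0617, -0.0198 and -0.0798 in CFPAC-1. The minimum set for pairing was 0.1, so 0.151 and 0.110 in BxPC-3 lay above it and the other values below. The cause of these differences was not tested. A mean of at least 5 FPKM left out NDUFA5. With 3 libraries a group and no counts, depth limits could not be stated.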
